A study of Cervus nippon with 40 samples.

Results

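miR-145 and miR-143 were followed through 40 small RNA libraries of Sika Deer. The members were taken by name, as every listed miRNA called bta-miR-145 or bta-miR-143 with or without an arm suffix. This gave 2 members of 500 listed names, of which 337 were names of known miRNAs. The libraries came from male deer of the Shuangyang breed and covered adrenal, antler, brain, heart, kidney, liver, lung, skeletal muscle, spleen and testes. Each organ had 1 library at each of 4 stages. Juvenile deer were 1 year old, those in adolescence 3 years, adult deer 5 years and aged deer 10 years. The RNA of 3 deer was pooled before a library was made, and 12 deer were used in all. The 10 organ libraries of a stage therefore came from the same 3 deer, and the stages from different deer. The labels name no treatment, and the spread between deer of 1 stage was not measured.

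miR-143 and miR-145 are cut from a single primary transcript in mammals. The gene is driven by serum response factor and its partner myocardin, and the pair is best known for holding vascular and visceral smooth muscle in the contractile state, in part through the mRNAs of KLF4 and KLF5. Smooth muscle is found in the walls of blood vessels and airways, and in ruminants also in the capsule and trabeculae of the spleen. Smooth muscle cells themselves were not measured here, so the name "smooth muscle miRNA" is background, and no list of smooth muscle mRNAs could be set beside the miRNA values. In bulk tissue, fewer cells of a type and less RNA per cell cannot be told apart.

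The values are RPM, the reads of a miRNA per 1000000 miRNA reads of its library. The libraries held 41866 to 7759033 miRNA reads, with the lowest depths in testes (median 82124.5) and the highest in skeletal muscle (median 6261241). Of 22 marker checks of organ identity, 21 could be made, and in 19 the marker was highest in its organ. In these, miR-192 stood for both liver and kidney, and lung had no marker. The markers were chosen with earlier results of these data known, so a pass is a description and no independent check. miR-7, listed for adrenal and brain, was scored for adrenal alone, where it was highest. miR-122, the main miRNA of liver, was not among the listed names and so had 0 reads here. Some of these markers had few reads in the whole series, as miR-885 with 1, miR-499 with 5 and miR-194 with 6, and testes was checked on miR-449a with 7 and miR-202 with 9 reads alone. miR-133a of striated muscle was higher in heart than in skeletal muscle, and miR-192 was nearly equal in liver and kidney. By correlation of all tested miRNAs, 37 of 40 libraries were nearest to another library of their own organ. The nearest library of the aged spleen was the adolescence lung, and the reverse (r = 0.95). For the juvenile testes it was the juvenile adrenal (r = 0.921). The tests of miR-145 were repeated without each of these 3 libraries.

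miR-145 was highest in spleen at every stage. It was read in 40 of 40 libraries and took 1105124 reads, 2.11% of all miRNA reads of the series, and 46.5% of its reads came from the 4 spleen libraries. Its spleen level was 126647 RPM in the juvenile, 189707 RPM in adolescence, 198873 RPM in the adult and 136607 RPM in the aged library. These values rest on 107668, 168926, 180157 and 57050 reads. miR-145 thus made up 12.7%, 19.0%, 19.9% and 13.7% of the miRNA reads of the spleen, and it was the miRNA with rank 2 in all 4 libraries. The adolescence and adult spleens were high and the juvenile and aged spleens low, with a mean of 162959 ± 36598 RPM (SD, n = 4).

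The highest value outside spleen was 105877 RPM, in the adult testes, so the 4 spleen libraries and the 36 others did not overlap. They also did not overlap after TMM scaling, which sets the libraries level on the bulk of the miRNAs in place of the total. There the lowest spleen stood at 16.09 and the highest other library at 15.78 on the log2 scale. Of the 124 miRNAs tested, 1 (0.806%) had all 4 spleens above all 36 other libraries, on either scale, and this was miR-145. In RPM this also held for miR-146a, which was too rare to be tested, on 48 reads in spleen. Its spleens lay between 5.52 and 24.7 RPM, with 5.13 RPM as the highest value elsewhere. The mean spleen level of miR-145 was 2.33 times that of the testes, the next organ. It was 5.77 times the median of the other 9 organs and 178 times that of skeletal muscle. Against the mean of the other 9 organs the fitted spleen difference was 2.55 on the log2 TMM scale (SE 0.30), and 3.17 by total miRNA reads. The spleen level was known when the miRNAs were chosen, so this difference is a description and is given no p. miR-145 enters only the count of calls in spleen over all 124 miRNAs. Without the aged spleen, the mean of the 3 younger spleens was 171742 ± 39322 RPM, 2.45 times the testes.

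**Figure D1:**
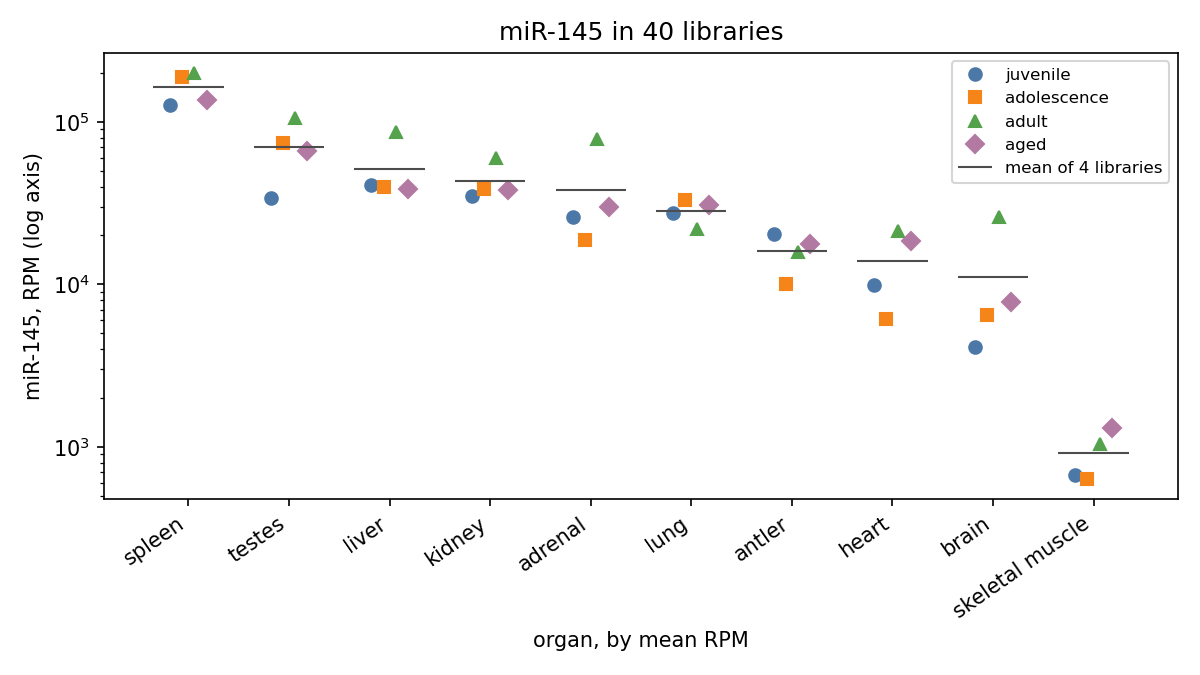
Level of miR-145 in RPM (log axis) in the 10 organs, ordered by their mean, with 1 point for each library, its shape and colour giving the stage, and a line at the mean of 4 libraries. The 4 spleen libraries sit between 126647 and 198873 RPM, above all 36 others, and the skeletal muscle libraries lie lowest, between 638 and 1300 RPM.

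Outside spleen, miR-145 in RPM followed the order testes, liver, kidney, adrenal, lung, antler, heart, brain and skeletal muscle. In testes, the organ of the male germ line, it stood at 34144, 74103, 105877 and 66020 RPM from juvenile to aged. The juvenile testes was the lowest of the 4 and the adult the highest. Liver gave 41062, 39859, 86257 and 38453 RPM, and kidney 35208, 38591, 60272 and 37880 RPM. In both organs 3 libraries lay close together and the adult library was above them. Adrenal gave 25956, 18700, 78643 and 30037 RPM, again with the adult library highest.

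Lung gave 27400, 32894, 21866 and 30838 RPM from juvenile to aged, and here the adult library was lowest. Antler, the yearly regrown bone of the deer head, gave 20356, 10072, 15821 and 17646 RPM. Heart gave 9865, 6151, 21366 and 18593 RPM, with both older libraries above both younger. In heart this order turned round after TMM scaling, where the levels were 14.47, 15.32, 14.23 and 14.16 on the log2 scale. Brain gave 4123, 6457, 25926 and 7832 RPM, and skeletal muscle 672, 638, 1047 and 1300 RPM. The ranges of neighbouring organs in this order overlapped in all but 2 places. The lowest lung library was above the highest of antler, and the highest skeletal muscle library was below the lowest of brain. Organ means outside spleen ran from 70036 ± 29470 RPM in testes to 914 ± 317 RPM in skeletal muscle (SD, n = 4 each), a ratio of 76.6.

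The position of skeletal muscle depended on the scaling. miR-1, the striated muscle miRNA, held 91.1 to 92.9% of the reads of the skeletal muscle libraries, and the median of all tested miRNAs there was 3.62 log2 units below the other organs per total reads but 0.01 below after TMM scaling. With the reads of miR-1 left out of the total, the mean of miR-145 rose to 11338 RPM in skeletal muscle and 27439 RPM in heart. On the TMM scale the order became spleen (16.73 ± 0.55, mean log2 level ± SD over 4 stages), lung (14.78 ± 0.33), heart (14.54 ± 0.53), testes (14.49 ± 0.89), liver (14.44 ± 0.24), skeletal muscle (14.25 ± 0.66), kidney (14.25 ± 0.28), adrenal (13.98 ± 0.48), antler (13.81 ± 0.61) and brain (13.03 ± 0.65). The 9 organs outside spleen then lay within 1.75 log2 units. In arithmetic means of TMM-scaled RPM, spleen was 3.99 times lung, the next organ.

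**Figure D2:**
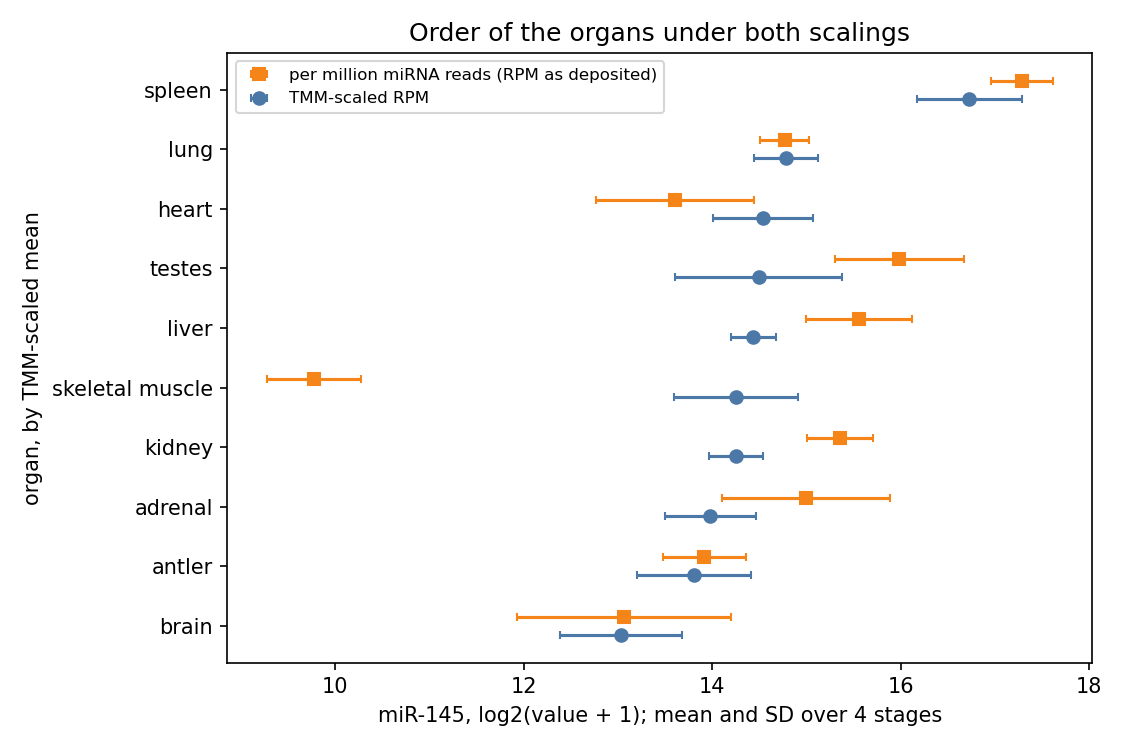
Level of miR-145 as log2(value + 1) per organ under both scalings, with points at the mean and bars at the SD over the 4 stages. Spleen is highest under both, while skeletal muscle moves from the lowest level by total miRNA reads to 14.25 among the other organs after TMM scaling.

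Whether the organs outside spleen differed was tested with limma on the TMM scale, with organ and stage in the model and Benjamini-Hochberg adjusted p values over all miRNAs and all 36 organ pairs. A pair was called at an adjusted p below 0.01 and a difference above 1 on the log2 scale. miR-145 passed in 4 of 36 pairs, beside 24.4% of the 4464 tests of all miRNAs, and brain was the lower organ in all 4. The difference of brain was −1.75 to lung (SE 0.40, adjusted p = 0.000598), −1.51 to heart (adjusted p = 0.00277), −1.46 to testes (adjusted p = 0.00374) and −1.40 to liver (adjusted p = 0.00521). All 4 were called without the adolescence lung, where the difference of lung over brain was 1.63 (limma adjusted p = 0.00299), and also without the juvenile testes or the aged spleen. By total reads heart exceeded brain by 0.54 (limma adjusted p = 0.284) and this call was lost. Over all miRNAs, 16.6% of the tests that involve brain called it lower, and miR-145 did so in 4 of 8 pairs.

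On the TMM scale the remaining organs were not told apart by miR-145. Of the 28 pairs without brain and spleen, none was called by limma (0 of 28). The unadjusted p was below 0.05 for 1 pair, with a largest difference of 0.98 and a lowest adjusted p of 0.0549. The count was also 0 of 28 with edgeR and with DESeq2 on the recovered reads, where 2 and 5 pairs had a raw p below 0.05. In limma the share over all miRNAs was taken for the 36 pairs (24.4%), not for these 28. The other tools had no such share. None of the 8 pairs of neighbours in the TMM order was called by limma, and their differences ran from 0.00055 between skeletal muscle and kidney to 0.77 between antler and brain (SE 0.40, adjusted p = 0.137). Scaled by total miRNA reads, 20 of 36 pairs were called (background 40.5%). Among them were 14 of the 28 pairs without brain, for which no share over all miRNAs was taken. Also called were 8 of 8 with skeletal muscle, where the background was 68.6%. After TMM scaling, 0 of 8 pairs with skeletal muscle were called (background 28.6%), where 1 had a raw p below 0.05. The count was 0 with edgeR and DESeq2 too. It was 1 without the adolescence stage, without the juvenile testes, with no minimum of reads and with TMM factors over unfiltered known names. No share for pairs with skeletal muscle was taken in these fits or in edgeR and DESeq2. Without the juvenile testes, limma called 8 of 36 pairs (background 27.1%). It called 0 without the juvenile stage and 2 without the aged stage, and no share over all miRNAs was taken for either fit. Without stage in the model it called 2 pairs (background 21.6%). Without the juvenile stage brain still lay below heart by 1.81, testes by 1.67, lung by 1.53 and liver by 1.39 on the log2 scale (limma adjusted p from 0.0125 to 0.0576). Without the aged stage the lost pairs still had brain below lung by 1.67 and liver by 1.58 (limma adjusted p = 0.0126 and 0.0180).

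Between the means of the stages, miR-145 differed by at most 0.80 on the log2 TMM scale. On the TMM scale it was higher in the adult than in the juvenile library in 9 of 10 organs and lower in the aged than in the adult library in 9 of 10. The adult library was the highest of the 4 in 8 organs and the lowest in 0. Heart and lung were the exceptions, with the adolescence library highest, which in lung is the one nearest to the aged spleen. Without it the aged library was the highest in lung. In RPM the adult library was the highest in 7 organs and the lowest in 1, the lung.

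The difference between adult and juvenile was 0.80 on the log2 scale (SE 0.25) and was not called (limma, Benjamini-Hochberg adjusted p = 0.0560). With DESeq2 it was 0.91 (adjusted p = 0.000508), without antler 0.98 (limma adjusted p = 0.00503) and without the aged spleen 0.92 (limma adjusted p = 0.00411). These passed the limit on p and missed only the log2 limit of 1. The adult exceeded adolescence by 0.53 (limma adjusted p = 0.220), and aged minus adult was −0.59 (limma adjusted p = 0.165). Adolescence minus juvenile was 0.27, aged minus juvenile 0.21 and aged minus adolescence −0.06. limma called 0 of 6 stage pairs for miR-145, beside 0.806% of the 744 tests of all miRNAs, while 3 pairs had a raw p below 0.05. The count was 0 of 6 with edgeR and DESeq2 as well, where 3 and 4 pairs had a raw p below 0.05. A share over all miRNAs was not taken for stage pairs in edgeR or DESeq2.

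The moderated F test of limma over all 4 stages gave an adjusted p of 0.0852 for miR-145, which did not pass 0.01. It called 6 of 124 miRNAs (4.84%), namely miR-133c, miR-140, miR-339a, miR-339b, miR-409a and miR-493. This call for miR-145 was not firm. It passed with DESeq2 (adjusted p = 0.00128, background 25.8%), without antler (limma adjusted p = 0.00962, background 5.74%), without the aged spleen (limma adjusted p = 0.00568, background 16.5%) and with TMM factors taken over all listed names (limma adjusted p = 0.00610, background 5.65%). It did not pass without the juvenile testes (limma adjusted p = 0.0199) or the adolescence lung (limma adjusted p = 0.0983). Without the adult libraries the largest stage difference was 0.24 and the limma adjusted p was 0.678. As the organs of a stage share their deer, a stage effect of this kind is a difference between 4 pools of deer, and age cannot be told apart from these deer.

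**Figure D3:**
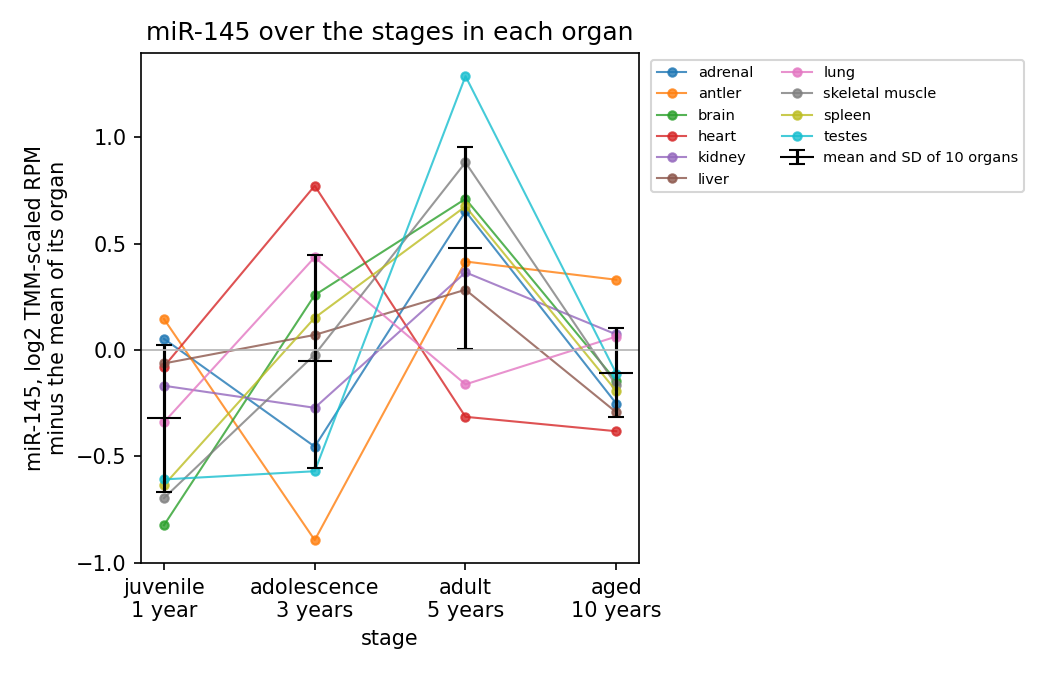
miR-145 in each organ over the 4 stages, as log2 TMM-scaled RPM minus the mean of that organ, with a coloured line for each organ and black marks at the mean and SD of the 10 organs. The adult library is the highest in 8 organs, and heart and lung peak in adolescence.

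The stability of miR-145 was described by the SD of its log2 TMM level over the 4 stages within an organ. The SD was lowest in liver (0.24), kidney (0.28) and lung (0.33), and highest in testes (0.89). Its median over the 10 organs was 0.54, where the median of all 124 tested miRNAs was 0.88, and miR-145 had the rank 16 of 124 from the most stable, every name counted. Among the 30 most abundant miRNAs, whose median was 0.83, it had the rank 6. In antler its SD of 0.61 was close to the median of all miRNAs there, 0.64, at rank 58. In RPM the ratio of the highest to the lowest stage ran from 1.5 in lung to 6.29 in brain, and was 1.57 in spleen. After TMM scaling it ran from 1.49 in liver to 3.72 in testes, and was 1.71 in lung, 2.48 in spleen and 2.90 in brain.

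miR-143 was rare in these libraries. It had 159 reads in all, in 26 of 40 libraries, and 104 of these (65.4%) came from spleen. These are the reads given to the name miR-143, and how reads were matched to names was not tested. The spleen libraries held 8, 30, 35 and 31 reads from juvenile to aged. This is 9.41 RPM in the juvenile (95% exact binomial interval 4.06 to 18.5) and 33.7 RPM in adolescence (22.7 to 48.1). It is 38.6 RPM in the adult (26.9 to 53.7) and 74.2 RPM in the aged spleen (50.4 to 105). The juvenile spleen was lowest and the aged highest. Intervals of this kind cover counting error only, since reads without molecular identifiers are not independent molecules.

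The mean spleen level of miR-143 was 39.0 ± 26.7 RPM (SD, n = 4), 8.92 times that of adrenal, the next organ, at 4.37 RPM. Without the aged spleen it was 27.2 ± 15.6 RPM, 6.23 times adrenal. Unlike those of miR-145, the groups overlapped, since 1 read in the adolescence testes stood for 14.9 RPM and the juvenile spleen lay at 9.41 RPM. The adult and aged testes had 0 reads, which at their depth allows up to 30.9 and 71.7 RPM (the value of 3 reads, a one-sided limit), so testes and spleen could not be compared well at this depth. The other means were 4.19 RPM in testes on 2 reads, 3.76 RPM in kidney, 2.49 RPM in heart, 2.09 RPM in lung, 1.36 RPM in liver, 0.692 RPM in antler and 0.198 RPM in skeletal muscle. The order of these organs depended on the scaling, as for miR-145. In TMM-scaled RPM the mean of miR-143 was 27.98 in spleen and 4.48 in skeletal muscle, which became the next organ at a ratio of 6.25, followed by heart at 3.86 and adrenal at 2.15. Brain had 0 reads in 4 libraries, which by the same limit allows up to 2.59 RPM in the deepest and 8.14 RPM in the shallowest.

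**Figure D4:**
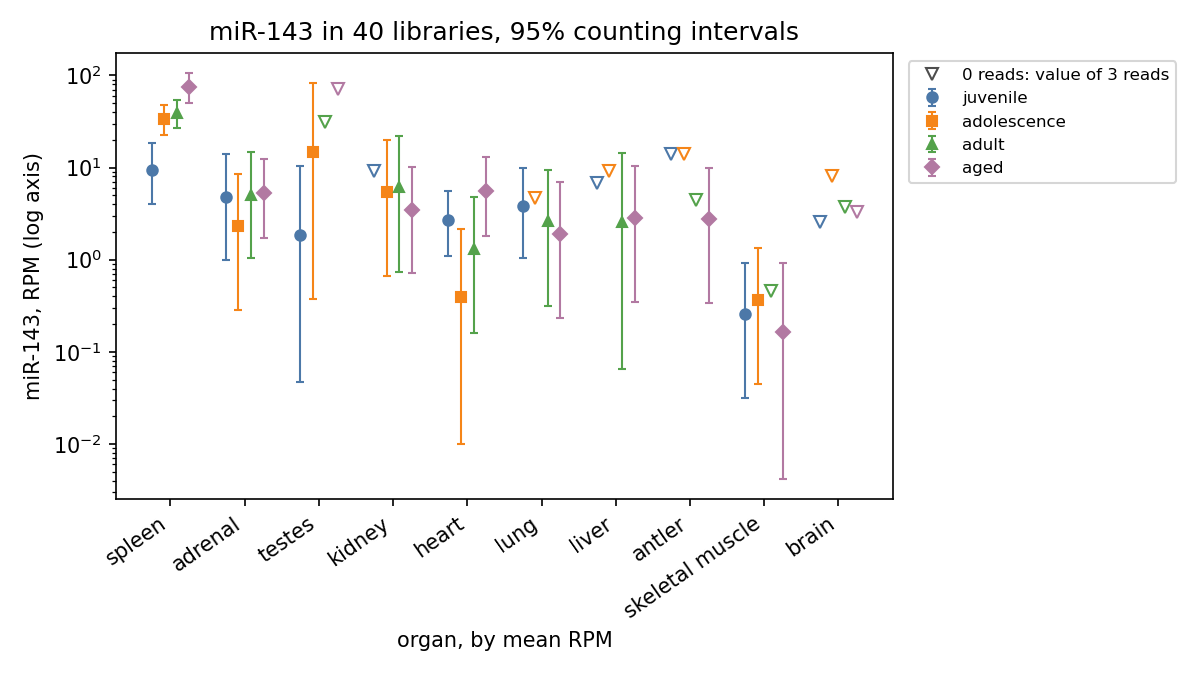
Level of miR-143 in RPM (log axis) per organ, ordered by mean, with 1 point for each library with reads and its 95% exact binomial interval. Open triangles stand at the value of 3 reads for the 14 libraries with 0 reads. The spleens lie between 9.41 and 74.2 RPM, and the intervals in testes are the widest, since these libraries are the shallowest.

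miR-143 reached 10 reads in 3 libraries and so did not pass the filter of 10 reads in 4 libraries. With no filter, limma gave it an adjusted p of 0.798 over the stages among 305 known miRNAs. Its largest stage difference was 0.43 on the log2 scale, and 0 stage pairs were called. This fit called 0 miRNAs of any name over the stages, and 14 of 40 libraries had no read of miR-143. It could therefore hardly show a stage difference of miR-143, and no conclusion is drawn from it.

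The 2 members were far from equal in reads although they are cut from 1 transcript. There were 6950 reads of miR-145 for each read of miR-143. Per 10000 reads of miR-145, miR-143 had 2.02 reads in spleen (95% exact interval 1.65 to 2.45) and 0.930 reads in the other 9 organs together (0.701 to 1.21). These intervals do not overlap, but they leave out the spread between libraries. Within spleen the ratio was 0.743 (0.321 to 1.46) in the juvenile, 1.78 (1.20 to 2.54) in adolescence, 1.94 (1.35 to 2.70) in the adult and 5.43 (3.69 to 7.71) in the aged library. The aged spleen was thus above the other 3, and the juvenile spleen fell within the interval of the other organs. Without the aged stage the spleen ratio was 1.60. Heart had 1.66 reads (0.927 to 2.73) and skeletal muscle 2.14 reads (0.696 to 5.0). The intervals of these and of adrenal (0.645 to 2.07) and antler (0.0809 to 2.41) include the value of spleen.

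Other miRNAs that share a transcript were also unequal in these tables. Over 10 such pairs, the ratio of the more abundant to the rarer partner ran from 1.75 for miR-93 and miR-106b to 102165 for miR-192 and miR-194, with a median of 481. miR-199a-3p and miR-214 differed 17.7 times and miR-1 and miR-133a 21.3 times. miR-17-5p and miR-92a differed 12400 times. The ratio of miR-145 to miR-143 lay above the median of these pairs and below the last.

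Of 12 other miRNAs linked to smooth muscle, 5 passed the filter, and limma called 0 higher and 0 lower in spleen against the mean of the other 9 organs. Over all 124 miRNAs, miR-145 included, the same test called 4.03% higher and 0.806% lower. A count of 0 of 5 therefore does not set the list apart. miR-1 and miR-133a are also miRNAs of striated muscle, and the other organs include heart and skeletal muscle. The median difference of the 5 was 0.00 on the log2 TMM scale, beside −0.11 for all 124. miR-133a stood at 0.67, miR-29a, which targets collagen mRNAs, at 0.12, miR-26a at 0.00, miR-24-3p at −0.23 and miR-1 at −1.18. The number with a raw p below 0.05 was 0 in limma, 0 in edgeR and 1 in DESeq2, and both other tools called 0 as well. Without the aged spleen, limma called 1 of the 5, miR-1, lower (background 3.31%). miR-1 was at 52057 RPM in the aged spleen and between 1782 and 7564 RPM in the younger ones. miR-26a was at 243240 RPM in the aged spleen and between 11966 and 26696 RPM in the younger ones. The summed level of the 12 was 27357, 39580, 19519 and 297361 RPM in the 4 spleens, so the aged library stood apart here, while for miR-145 it lay within the range of the others.

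Of 6 mesenchymal miRNAs, 4 were tested and none passed in limma, edgeR or DESeq2 (0 in either direction). Over all miRNAs these tools called 4.03%, 7.26% and 7.26% higher and 0.806%, 0.806% and 4.84% lower. In limma 1 had a raw p below 0.05. Their median was −0.21. miR-214, made together with miR-199a in connective tissue, was at 1.09 in spleen (limma adjusted p = 0.140), and miR-140, known from cartilage, at −0.37. miR-140 was the only one of the listed miRNAs that limma called over the stages.

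Blood cell miRNAs were higher in spleen for 1 of the 3 tested, of a list of 7 (background 4.03%). miR-150, a miRNA of mature lymphocytes, had a difference of 3.23 on the log2 TMM scale (SE 0.65, limma adjusted p = 0.000742). Without the juvenile stage the difference was 2.52 (limma adjusted p = 0.0643) and without the adult stage 3.09 (limma adjusted p = 0.0242), and the call was lost in both. miR-342, also found in white blood cells, stood at 1.8 (limma adjusted p = 0.0188) and miR-142-5p, made in blood-forming cells, at 1.81 (limma adjusted p = 0.224). edgeR and DESeq2 called all 3 higher (background 7.26% in each). Scaled by total reads, limma called 2 of the 3, miR-150 and miR-342 (background 9.68%). Without the aged spleen it called 1, miR-150 (background 4.13%). Of the rest, miR-142-3p and miR-146a were listed but not tested, and miR-223 and miR-155 were not among the listed names. The summed level of the list was 955, 1129, 554 and 4087 RPM in the 4 spleens, led in the aged library by miR-142-5p with 2849 RPM, against 6.62 to 104 RPM in the younger. miR-150 moved the other way, with 31.1 RPM in the aged and 256 to 325 RPM in the younger spleens. The adult spleen had the lowest summed level of blood cell miRNAs and the highest miR-145, and the part of blood cells in the level of miR-145 was not tested. miR-486 of red cells and muscle stood at −0.09. miR-126-3p, the only miRNA listed for endothelium, had 3 reads in the 4 spleens together, too few for a fold. edgeR and DESeq2 called miR-126-3p lower in spleen (background 0.806% and 4.84%), while limma did not (adjusted p = 0.0246).

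**Figure D5:**
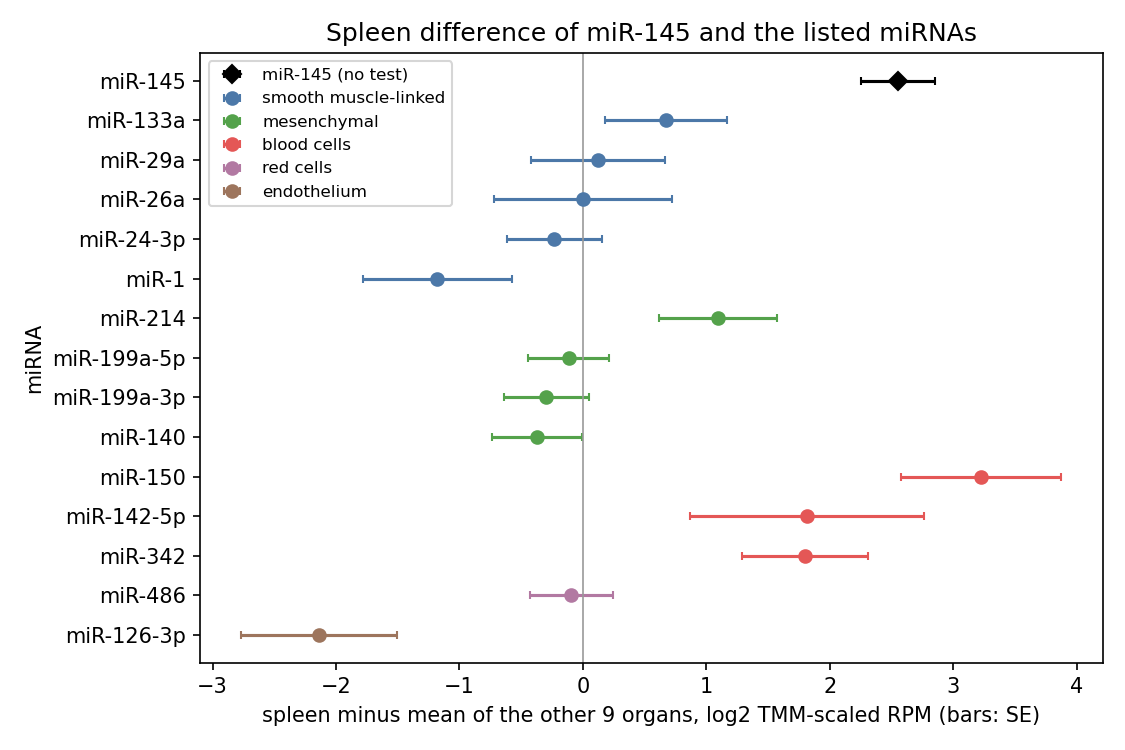
Difference of spleen from the mean of the other 9 organs on the log2 TMM scale for miR-145 and the listed miRNAs that passed the filter, with bars at the SE and a colour for each list. miR-145 lies at 2.55, the 5 smooth muscle-linked miRNAs between −1.18 and 0.67, and miR-150 of blood cells at 3.23.

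By the rule for likeness, the miRNAs that most resembled miR-145 over the 40 libraries were miR-342 (r = 0.55), miR-150 (r = 0.46), miR-1388-5p (r = 0.45), miR-574 (r = 0.38) and miR-1307 (r = 0.37), of 118 compared on the log2 TMM scale. The least alike were miR-708 (r = −0.53) and miR-431 (r = −0.57). The libraries share deer within a stage and differ in depth, so these values are a description with no p. Over the 36 libraries without spleen, r was 0.40 for miR-342, 0.15 for miR-150, 0.20 for miR-1388-5p, 0.27 for miR-574 and 0.08 for miR-1307. It was −0.40 for miR-708 and −0.69 for miR-431. For miR-150, miR-1388-5p and miR-1307 the likeness thus lay largely in the 4 spleen libraries. Scaled by total reads, r rose to 0.86 for miR-342, 0.72 for miR-150, 0.74 for miR-1388-5p, 0.85 for miR-574 and 0.58 for miR-1307. It was then positive for miR-708 and miR-431, at 0.15 and 0.36.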

How the data were processed

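The deposited tables, 1 per library, hold RPM values (the header says tpm). To make them the authors trimmed adapters, dropped short reads and other classes of RNA, matched what was left to cattle names in miRBase and divided by the miRNA total of each library. The submitters' processing notes name bcl2fastq 1.8.4, CASAVA and Bowtie. All 7982 values were whole reads to a tolerance of 0.01 read, so reads could be recovered and a precision given. Known miRNAs alone were tested, since numbered names of antler differ. The antler name miR-148c was read as miR-2957. The filter was 10 reads or more in 4 libraries or more. Libraries were scaled with TMM factors (edgeR 4.0.16 in R 4.3.3) and log2(RPM + 1) was fitted with limma 3.58.1 (trend), with organ and stage as terms. Fold changes on this scale understate those of low miRNAs. Calls needed a Benjamini-Hochberg adjusted p below 0.01 and, for pairs, an absolute log2 difference above 1. DESeq2 1.42.0 and edgeR on recovered reads were alternatives. The script was tested on simulated data. Organ libraries of a stage share their deer, so stage is the block. The deviations of 2 organs from their means had a median r of 0.117 in 180 same-stage pairs and −0.048 in 540 pairs of different stages. With 1 library per organ and stage, the error of the fit is what the organ and stage terms leave over. The p values therefore do not measure the spread between pools of deer of the same stage.

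Members, lists and the naming rule (the 5 highest and 2 lowest r with miR-145, fixed lists and transcript partners) were chosen with earlier results of these data known. Names of at least 1000 reads with nearly the same reads were counted once in ranks within libraries and in likeness, but not in tests or stability ranks. Sequences and target genes were not analysed here.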

Additional observations from a re-analysis of the deposited data

Results flagged for a closer look

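The gap between the highest or lowest library and its nearest neighbour, divided by the range of the organ, was taken in 13 groups of 4 libraries, and 3 exceeded the 95% critical value of Dixon's test for 4 values. Chance passes about 1 in 20 such groups. All 3 were adult libraries with a high level of miR-145. The adult brain held 25925.6 RPM with 7831.9 RPM as the nearest value (0.830 of the range), the adult kidney 60271.5 RPM with 38590.9 RPM (0.865) and the adult liver 86257.3 RPM with 41061.8 RPM (0.945). These 3 libraries came from the same 3 deer. On the TMM scale the adult library was also the highest in these organs, but the gap was 0.411 of the range in brain, 0.513 in kidney and 0.416 in liver, below the critical value.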

How the results depend on the processing

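Of 370 alternatives for 28 results, 298 kept the direction and the side of the threshold or moved less than the spread, 49 moved, 10 passed the threshold newly, 11 lost it and 2 reversed. The largest stage difference of miR-145 (0.80) became 0.908 with DESeq2 and 1.03, for another pair of stages, with TMM factors over all listed names, where the test over all stages passed its limit on p, and 0.24 to 1.06 with organs, stages or libraries left out. The call over stages passed without antler (0.98) and without the aged spleen (0.92). Stage pairs called stayed at 0 in all 26 alternatives. miR-145 organ pairs outside spleen (4) were 20 by total miRNA reads and 0 to 8 with stages or libraries left out. They were 0 without the juvenile stage, 2 without the aged stage and 8 without the juvenile testes. For the fits without a stage, no share over all miRNAs was taken. With no replicate block, that is without stage in the model, 2 organ pairs were called. Brain against liver and testes were lost (limma adjusted p = 0.0147 and 0.0109), with liver and testes still above brain by 1.40 and 1.46. Listed miRNAs called in spleen (1) were 2 by total reads, 4 with edgeR and 4 with DESeq2. In edgeR and DESeq2 these were 3 blood cell miRNAs, called higher, and miR-126-3p, called lower. The count was 2 with a pseudocount of 10 RPM and 3 with no minimum of reads. It was 2 with TMM factors over all listed names and 2 over known names without a minimum. With stages or libraries left out it was 0 to 2. The spleen level of miR-145 over the next organ (2.33) was 3.99 after TMM scaling, 3.41 with DESeq2 size factors and 2.13 to 2.60 with stages left out. That of miR-143 was 4.88 to 9.76. The likeness of miR-708 and miR-431 reversed by total reads, to 0.15 and 0.36. The miRNAs called over the stages (6) were 10 with edgeR, 32 with DESeq2, 0 with no minimum or no organ term and 0 to 20 with parts left out. Those called in spleen (6, with miR-145 counted) were 13 by total reads, 10 with edgeR, 15 with DESeq2 and 1 to 9 with parts left out. The causes were not tested. TMM factors over other names, and leaving out the juvenile testes or the adolescence lung, were chosen after seeing the data. So was leaving out the aged spleen for the stage and organ pair results. Depth limits miR-143, and in testes 1 read stood for up to 23.9 RPM.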
